A study of Homo sapiens with 6 samples.

Results

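The genes examined here encode the core machinery that makes microRNAs and that carries out silencing by small RNAs, including the siRNAs used in the experiment: DROSHA, DGCR8, XPO5, DICER1, AGO1, AGO2, AGO3, TNRC6A, TNRC6B and TNRC6C. These 10 genes were chosen by name, with earlier results of these data known. Each matched 1 of the 58051 gene identifiers in the count table, and all 10 were among the 17561 genes that passed the filter on low counts. The samples were 6 polyA RNA-seq libraries of U2OS, an established human osteosarcoma cell line. In 3 of them, called siSCR, the cells had received a scrambled siRNA (si Scramble), and in the other 3, called siSURF2, an siRNA against SURF2, a gene of the surfeit locus. Both groups were transfected 2 times at an interval of 49 h, were treated for 96 h in all and grew with 10% fetal bovine serum. The series title presents SURF2 as an antagonist of MDM2 in nucleolar stress, and the comparison asks which transcripts differed after its loss. Both groups carried an siRNA, and no cells without one were analysed here, so the effect of transfection itself on the silencing machinery was not measured. Nothing in the labels says that the replicates came from separate cultures, and p-values may therefore measure technical spread only.

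MicroRNAs are transcribed as long primary transcripts. In the nucleus the endonuclease DROSHA and its RNA-binding partner DGCR8, together called the Microprocessor, cut out a hairpin, which XPO5 (exportin 5) carries to the cytoplasm with RAN and GTP. DICER1 removes the loop, and a strand of the duplex is loaded into an Argonaute protein, where its seed, bases 2 to 8 from the 5′ end, pairs with target mRNAs. Of the human Argonautes, AGO2 is the one best known for cutting a fully paired target, which is how a siRNA removes its mRNA. The GW182 proteins TNRC6A, TNRC6B and TNRC6C bind Argonaute and recruit the PAN2-PAN3 and CCR4-NOT deadenylases. PolyA RNA-seq measured the mRNAs of these proteins and some long primary transcripts, not mature microRNAs and not protein.

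DGCR8 is also a microRNA host. In the GENCODE 29 annotation its exons share 88 bases with the MIR3618 hairpin and 85 bases with the MIR1306 hairpin on the same strand, so some DGCR8 reads may come from stretches that the Microprocessor cuts. The mature sequences in RefSeq (GRCh38.p14) lie on the plus strand at chr22:20085797-20085818 for hsa-miR-3618, chr22:20086072-20086093 for hsa-miR-1306-5p and chr22:20086112-20086129 for hsa-miR-1306-3p. They are shown because they sit inside the transcript counted as DGCR8, 5′ to 3′ with the seed in capitals.
hsa-miR-3618: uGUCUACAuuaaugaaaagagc
hsa-miR-1306-5p: cCACCUCCccugcaaacgucca
hsa-miR-1306-3p: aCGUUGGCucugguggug
No seed was shared among these microRNAs.

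The long transcripts MIR100HG and MIR222HG, whose levels are given near the end, host several microRNAs. Of these, 5 are shown in the same way because the processing machinery acts on such transcripts. Other mature forms annotated within these hosts, among them hsa-miR-10526-3p and hsa-miR-222-5p, are not shown. On the minus strand, RefSeq places hsa-let-7a-5p (of MIRLET7A2) at chr11:122146568-122146589, hsa-miR-100-5p at chr11:122152275-122152296 and hsa-miR-125b-5p (of MIR125B1) at chr11:122099809-122099830, all within MIR100HG. Within MIR222HG, hsa-miR-221-3p lies at chrX:45746180-45746202 and hsa-miR-222-3p at chrX:45747036-45747056, also on the minus strand.
hsa-let-7a-5p: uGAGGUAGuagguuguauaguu
hsa-miR-100-5p: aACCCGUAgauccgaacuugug
hsa-miR-125b-5p: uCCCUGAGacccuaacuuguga
hsa-miR-221-3p: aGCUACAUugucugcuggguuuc
hsa-miR-222-3p: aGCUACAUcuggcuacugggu
The last pair shared the seed GCUACAU, while let-7a, miR-100 and miR-125b each had a seed of their own.

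AGO4, AGO1 and AGO3 lie next to each other in this order on the plus strand of chromosome 1 (GRCh38). Their promoter stretches from RefSeq are shown because these neighbours differed in direction between the groups (values below). AGO4 is given at chr1:35807766-35808015 and AGO1 at chr1:35882959-35883208, each 250 bases up to the RefSeq start. AGO3 is given at chr1:35930855-35931077, cut to 223 bases so as to hold no annotated exon. The GENCODE 29 gene models of AGO1 and AGO3, used for the coordinates and lengths below, begin upstream of these RefSeq starts, so both stretches lie inside those gene spans but outside their exons, while the AGO4 stretch lies upstream of its gene model.
AGO4: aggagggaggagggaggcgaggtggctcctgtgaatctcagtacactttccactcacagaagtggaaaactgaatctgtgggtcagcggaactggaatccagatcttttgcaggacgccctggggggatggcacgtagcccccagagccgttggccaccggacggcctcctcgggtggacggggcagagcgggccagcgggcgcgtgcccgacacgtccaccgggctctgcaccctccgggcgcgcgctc
AGO1: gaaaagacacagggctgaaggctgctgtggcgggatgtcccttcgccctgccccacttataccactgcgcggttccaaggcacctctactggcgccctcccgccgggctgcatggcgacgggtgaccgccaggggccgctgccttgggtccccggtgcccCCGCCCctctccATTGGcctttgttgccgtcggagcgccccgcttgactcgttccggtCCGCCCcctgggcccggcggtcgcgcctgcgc
AGO3: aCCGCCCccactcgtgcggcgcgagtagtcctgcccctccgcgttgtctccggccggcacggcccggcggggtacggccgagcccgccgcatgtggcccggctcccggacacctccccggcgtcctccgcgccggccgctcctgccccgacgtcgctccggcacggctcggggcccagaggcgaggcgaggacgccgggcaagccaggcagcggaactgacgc
Capitals mark matches on either strand to 6 motifs that were searched: CCAAT, the GC box GGGCGG, the E-box CACGTG, the motifs TTTCCCGC and TTTGGCGC, and the TATA box TATAAA. The AGO1 stretch held 1 CCAAT and 2 GGGCGG, and the AGO3 stretch held 1 GGGCGG, all as the reverse complement. The AGO4 stretch held none of the 6 motifs. Among 35116 RefSeq windows of 250 bases, 32% held CCAAT, 42.6% held GGGCGG, 6.34% held CACGTG, 1.39% held TTTCCCGC, 0.55% held TTTGGCGC and 10.7% held TATAAA. GC content was 66.4% for AGO4, 71.6% for AGO1 and 78.9% for AGO3. These matches describe the letters and do not show binding.

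The libraries held 17123333 to 19688089 counts on genes. SURF2 (ENSG00000148291, chr9:133356552-133361169) had means of 34.8 ± 2.11 CPM in siSCR and 3.50 ± 0.276 CPM in siSURF2 (SD, n = 3), where CPM are counts per 1e6 counts scaled with TMM factors. It fell by 3.31 on the log2 scale (SE 0.10), with an adjusted p of 3.7e-20. Adjusted p-values are from edgeR's quasi-likelihood test with Benjamini-Hochberg adjustment unless another tool is named. Its exons share 119 bases with SURF1 on the opposite strand. The siSURF2 replicate 2 library stood apart from the other siSURF2 libraries: chi-square per degree of freedom over genes was 7.96 and 9.19 against replicates 1 and 3, and 2.68 between those. Mitochondrial genes took 2.73% of its counts, against 4.70% and 4.74% in the other siSURF2 libraries and 2.91% to 3.50% in siSCR. Within siSCR, replicate 3 had ratios of 4.11 and 3.98 against replicates 1 and 2, and the ratio between those was 2.38. No pair of libraries was within sampling noise (lowest ratio 2.38). Of 8 mesenchymal markers, 7 were tested and COL1A2 was near 0. Of those tested, 4 rose (57.1%) and 0 fell, against 25.8% higher and 26.2% lower over all genes tested. VIM, RUNX2 and THY1 did not pass. The summed level of the 8 went from 3319 to 3397 CPM in siSCR to 3751 to 4081 CPM in siSURF2. SPARC alone had means of 1019 CPM in siSCR and 1408 CPM in siSURF2. The summed blood markers stayed at or under 1.38 CPM in all libraries, with 3 of 6 at 0 counts. Summed epithelial markers went from 9.17 to 9.20 CPM in siSCR to 9.96 to 11.2 CPM in siSURF2, but its members moved apart: EPCAM rose (log2 fold change 0.99, adjusted p = 4.4e-07), CDH1 fell (-2.70, adjusted p = 2.0e-08) and KRT5 did not pass. Summed endothelial markers went from 4.64 to 6.73 CPM to 3.20 to 4.12 CPM, with TEK lower (-2.15, adjusted p = 3.7e-06) and VWF not passed (0.005, adjusted p = 0.99). All of these epithelial and endothelial genes were under 10 CPM. The part of mitochondrial share and marker level in the results was not tested.

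The machinery changed in both directions. All 3 GW182 genes rose in siSURF2, AGO1, AGO2 and AGO3 fell, XPO5 and DGCR8 fell, and DROSHA and DICER1 did not pass the test. The falls reached 26.5% for AGO2, and the increase reached 56.6% for TNRC6C. In counts, 3 of the 10 genes were higher and 5 were lower at an adjusted p under 0.05. Among all genes tested, 52.0% passed that threshold, with 25.8% higher and 26.2% lower, so the share of changed genes among the 10 has to be read against a background in which about every other gene changed. The median log2 fold change of the 10 was -0.125, against 0.004 over all genes, whose interquartile range ran from -0.266 to 0.311. For 7 of the 10 the 3 CPM values of each group did not overlap, against 57.3% of all genes tested. In bulk RNA, a change in RNA per cell cannot be told apart from a change in which cells were present. Without siSURF2 replicate 2, 3 of the 10 genes were higher and 4 lower.

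**Figure D1:**
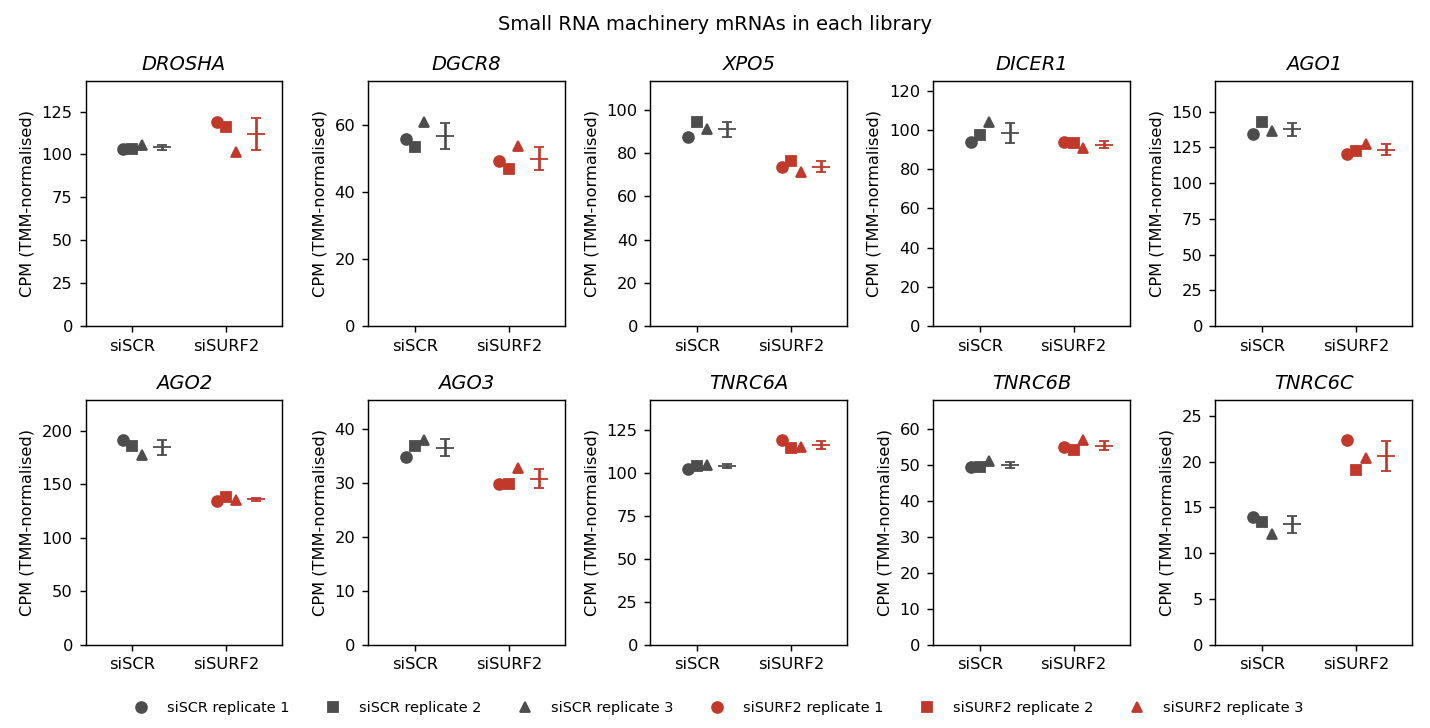
Level of each gene in every library (vertical axes, TMM-scaled CPM, from 0; symbols, libraries by replicate; cross and bars, mean ± SD, n = 3), siSCR in grey and siSURF2 in red. AGO2 and XPO5 lie lower and TNRC6C higher in every siSURF2 library, while the groups overlap for DROSHA, DGCR8 and DICER1.

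When library sizes were taken from the ERCC spike-ins, none of the 10 genes passed the threshold by edgeR, although all 10 kept their direction. The larger log2 fold changes stayed of similar size, -0.48 for AGO2, -0.35 for XPO5 and 0.62 for TNRC6C, but their SE was 0.26 for AGO2 and XPO5 and 0.28 for TNRC6C, against 0.05 to 0.09 with TMM factors. At an unadjusted p under 0.05, 1 was higher and 0 were lower. ERCC sequences took 1.12% and 1.27% of counts in the libraries numbered 3 of each group and 1.57% to 1.72% in the other libraries. Without that alternative, XPO5, AGO2, AGO3, TNRC6A and TNRC6C kept their calls in all 15 other alternatives.

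The nuclear step was measured by DROSHA and DGCR8, which form the Microprocessor together. DROSHA (ENSG00000113360, chr5:31400497-31532196, minus strand) had 103.4, 103.3 and 105.7 CPM in siSCR replicates 1 to 3 and 119.0, 115.9 and 101.3 CPM in siSURF2. Replicate 3 of siSURF2 lay below all siSCR libraries while the other siSURF2 libraries lay above them. The adjusted p was 0.13, at a log2 fold change of 0.10 ± 0.06 (SE). Without siSURF2 replicate 3 it was 0.17 with an adjusted p of 0.012, and the adjusted p was 0.024 with upper-quartile factors and 0.049 without normalization factors.

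DGCR8 (ENSG00000128191, chr22:20080232-20111877, plus strand), which holds the hairpin and guides the cut, had 55.8, 53.3 and 60.8 CPM in siSCR and 49.2, 46.8 and 53.6 CPM in siSURF2. The highest siSURF2 library, replicate 3, reached just above the lowest siSCR library, so the groups overlapped. DGCR8 fell by 0.18 on the log2 scale (SE 0.06) with an adjusted p of 0.019. That call was lost without siSCR replicate 3 (adjusted p = 0.091), without siSURF2 replicate 1 (0.10), without siSURF2 replicate 2 (0.11) and with upper-quartile factors (0.081). TRMT2A, which shares 12 exon bases with it on the opposite strand, also fell (log2 fold change -0.37 ± 0.07, adjusted p = 1.3e-04).

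XPO5 (ENSG00000124571, chr6:43522330-43576075, minus strand), the export receptor for hairpins, fell. It had 87.4, 94.5 and 91.3 CPM in siSCR and 73.8, 76.2 and 71.4 CPM in siSURF2, and every siSURF2 library lay below every siSCR library. The log2 fold change was -0.30 ± 0.05 with an adjusted p of 3.0e-05. POLR1C, a subunit of RNA polymerases I and III, shares 348 exon bases with XPO5 on the opposite strand, which is 4.08% of the exon bases of XPO5, and fell by 0.32 on the log2 scale (SE 0.07, adjusted p = 5.1e-04). No source used here gives the strand setting, so the reads of this stretch cannot be told apart.

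DICER1 (ENSG00000100697, chr14:95086228-95158010, minus strand), the cytoplasmic endonuclease, had 93.7, 97.6 and 104.2 CPM in siSCR and 93.8, 93.4 and 90.7 CPM in siSURF2. The siSURF2 libraries lay close together at or below the lower end of the siSCR range, and siSCR replicate 1 lay among them. The log2 fold change was -0.09 ± 0.05, and the adjusted p of 0.17 did not pass in this or in any of the 16 alternatives.

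The Argonautes, which hold the guide strand, split. AGO2 (ENSG00000123908, chr8:140520156-140635619, minus strand), the Argonaute best known for cutting its target, had 190.8, 185.9 and 176.9 CPM in siSCR and 134.2, 137.6 and 134.9 CPM in siSURF2. The groups were far apart compared with their spread: the means were 184.5 ± 7.04 and 135.6 ± 1.79 CPM (SD, n = 3). AGO2 fell by 0.44 on the log2 scale (SE 0.05) with an adjusted p of 1.5e-08, the smallest among the 10 genes.

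AGO1 (ENSG00000092847, chr1:35869808-35930528), an Argonaute that silences mainly with GW182 partners, had 134.0, 142.8 and 136.4 CPM in siSCR and 120.4, 122.2 and 127.5 CPM in siSURF2. All siSURF2 libraries lay below all siSCR libraries. The log2 fold change was -0.16 ± 0.05 with an adjusted p of 0.0099. The call was lost without siSCR replicate 2 (0.086), without siSURF2 replicate 1 (0.087) and with upper-quartile factors (0.055).

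AGO3 (ENSG00000126070, chr1:35930718-36072500), its neighbour, had 34.9, 37.0 and 37.9 CPM in siSCR and 29.8, 29.9 and 32.8 CPM in siSURF2, again with no overlap. It fell by 0.25 on the log2 scale (SE 0.07, adjusted p = 0.0032). AGO4 (ENSG00000134698, chr1:35808172-35857890), the remaining Argonaute and not among the 10 genes, went the other way, with 8.03, 8.29 and 7.96 CPM in siSCR and 14.0, 12.8 and 13.0 CPM in siSURF2. Its lowest siSURF2 library was above its highest siSCR library, and the log2 fold change was 0.71 ± 0.11 (adjusted p = 2.2e-06). Of these neighbours, then, AGO4 rose while AGO1 and AGO3 fell.

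The GW182 genes, which link Argonaute to deadenylation, all rose. TNRC6A (ENSG00000090905, chr16:24610209-24827632, plus strand) had 102.4, 104.1 and 104.7 CPM in siSCR and 118.8, 114.6 and 114.9 CPM in siSURF2. The groups did not overlap, and the log2 fold change was 0.16 ± 0.05 (adjusted p = 0.0081). TNRC6B (ENSG00000100354, chr22:40044817-40335808, plus strand) had 49.4, 49.5 and 51.0 CPM in siSCR and 55.0, 54.2 and 56.8 CPM in siSURF2. It also showed no overlap, with a log2 fold change of 0.15 ± 0.06 and an adjusted p of 0.034. That call was lost with DESeq2 (adjusted p = 0.068), without siSCR replicate 1 (0.10), without siSCR replicate 2 (0.074) and without siSURF2 replicate 3 (0.11).

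TNRC6C (ENSG00000078687, chr17:77959240-78108835, plus strand), the GW182 gene with the fewest reads, changed most. It had 13.9, 13.4 and 12.1 CPM in siSCR and 22.3, 19.1 and 20.4 CPM in siSURF2, from 234 to 251 counts and 369 to 409 counts a library. Every siSURF2 library was above every siSCR library, and the log2 fold change was 0.65 ± 0.09 (adjusted p = 8.6e-07). TNRC6C-AS1 overlaps 1438 of its exon bases, or 12.9%, on the opposite strand. That antisense transcript had 59 to 99 counts a library and a log2 fold change of -0.01 ± 0.18 (adjusted p = 0.97).

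**Figure D2:**
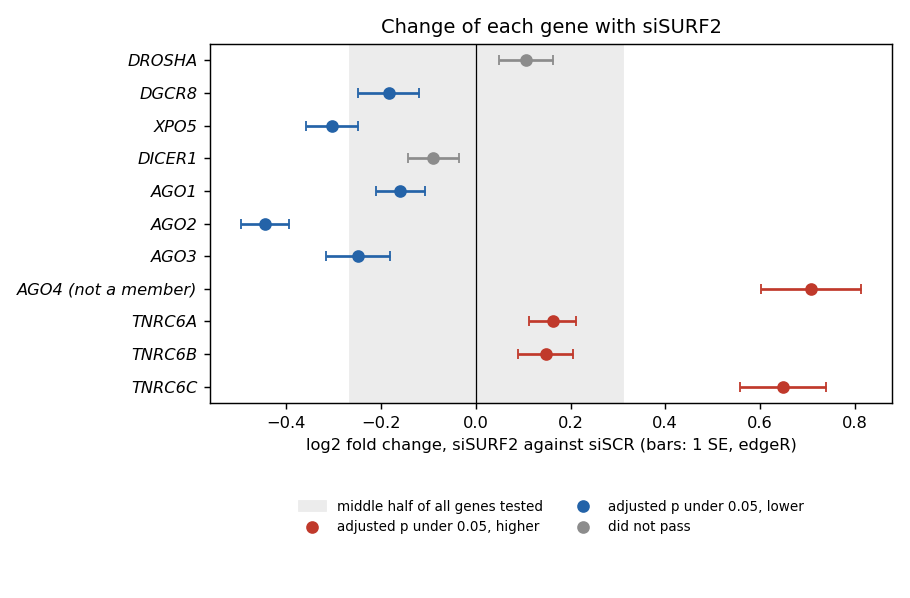
Log2 fold change of siSURF2 against siSCR for each gene (points, edgeR estimates; bars, ± 1 SE; red, higher; blue, lower; grey, not passed at an adjusted p of 0.05), with AGO4 added and the interquartile range of all genes tested as a grey band. TNRC6C and AGO4 lie above the band, AGO2 and XPO5 lie below it, and the estimates of the other genes lie within it.

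Levels of different genes were compared as CPM per kb of annotated exon (a level per length, siSCR means). The order depends on the length used. Exon lengths were 7.78 kb for DROSHA and 15.8 kb for AGO2, but coding lengths were 4.12 kb and 2.58 kb. Per kb of coding length, AGO2 (184.5 CPM) therefore lay above DROSHA (104.1 CPM). Per kb of exon, DROSHA was highest at 13.4 ± 0.169, followed by AGO2 at 11.7 ± 0.444, XPO5 at 10.7 ± 0.417 and AGO1 at 9.92 ± 0.327. TNRC6A at 8.03 ± 0.0907, DICER1 at 8.01 ± 0.432 and DGCR8 at 7.74 ± 0.527 followed and did not differ beyond their spread, and the ranges of XPO5 and AGO1 touched. The lowest were TNRC6B with libraries at 2.47, 2.48 and 2.55, AGO3 at 1.73 ± 0.0725, TNRC6C at 1.18 ± 0.0841 and AGO4 at 1.11 ± 0.0240, the last pair within their spread.

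In siSURF2 the order per kb of exon changed in its upper part. DROSHA stayed highest at 14.4 ± 1.22 CPM per kb, and TNRC6A at 8.98 ± 0.183, AGO1 at 8.88 ± 0.268, XPO5 at 8.66 ± 0.284 and AGO2 at 8.56 ± 0.113 came next with overlapping ranges among neighbours. DICER1 followed at 7.53 ± 0.138 and DGCR8 at 6.82 ± 0.471. TNRC6C (1.85 ± 0.148) and AGO4 (1.82 ± 0.0886) moved above AGO3 (1.46 ± 0.0801). This crossing depended on the length used. With coding length, AGO3 had 10.15% and AGO4 4.36% of the Argonaute sum in siSURF2. TNRC6C, with 20.6 CPM over 5.83 kb of coding length, also stayed below AGO3, with 30.8 CPM over 2.58 kb.

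Within the Argonaute family, AGO2 made up 49.3%, 47.1% and 46.8% of the summed CPM per kb of AGO1 to AGO4 in siSCR and 41.4%, 42.1% and 40.5% in siSURF2. The share of AGO1 went from 40.6% ± 1.01 to 42.9% ± 0.694 and that of AGO4 from 4.56% ± 0.0358 to 8.79% ± 0.515, while AGO3 had 7.09% and 7.03%. AGO2 was thus the leading Argonaute in siSCR. In siSURF2 AGO1 had the higher mean share, but only with exon length. With coding length in its place, AGO2 had 50.2% in siSCR and 44.7% in siSURF2 and AGO1 had 37.6% and 40.8%. With the longest transcript, AGO2 had 42.8% and AGO1 41.4% in siSURF2. The order of this pair in siSURF2 therefore depended on the length used. The summed level fell from 24.4 ± 0.514 to 20.7 ± 0.289 CPM per kb.

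Among the GW182 genes, the sum went from 11.7 ± 0.0525 to 13.6 ± 0.335 CPM per kb. TNRC6A made up 68.5% ± 0.483 of it in siSCR and 66.0% ± 0.607 in siSURF2, and TNRC6C 10.1% ± 0.752 and 13.6% ± 0.750. The shares of AGO1, AGO2, AGO4, TNRC6A, TNRC6B and TNRC6C and both sums did not overlap between groups, and each gave an exact permutation p of 0.10 (two-sided), the smallest that 3 against 3 libraries allow. The Benjamini-Hochberg value over the 12 tests of this kind was 0.15 for each. Shares within a family depend on each other, so these tests are not independent. DROSHA made up 63.4% ± 1.29 of the DROSHA and DGCR8 sum in siSCR and 67.8% ± 3.31 in siSURF2 (exact permutation p = 0.20, adjusted 0.24), and that sum was 21.1 and 21.2 CPM per kb (exact permutation p = 0.90).

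**Figure D3:**
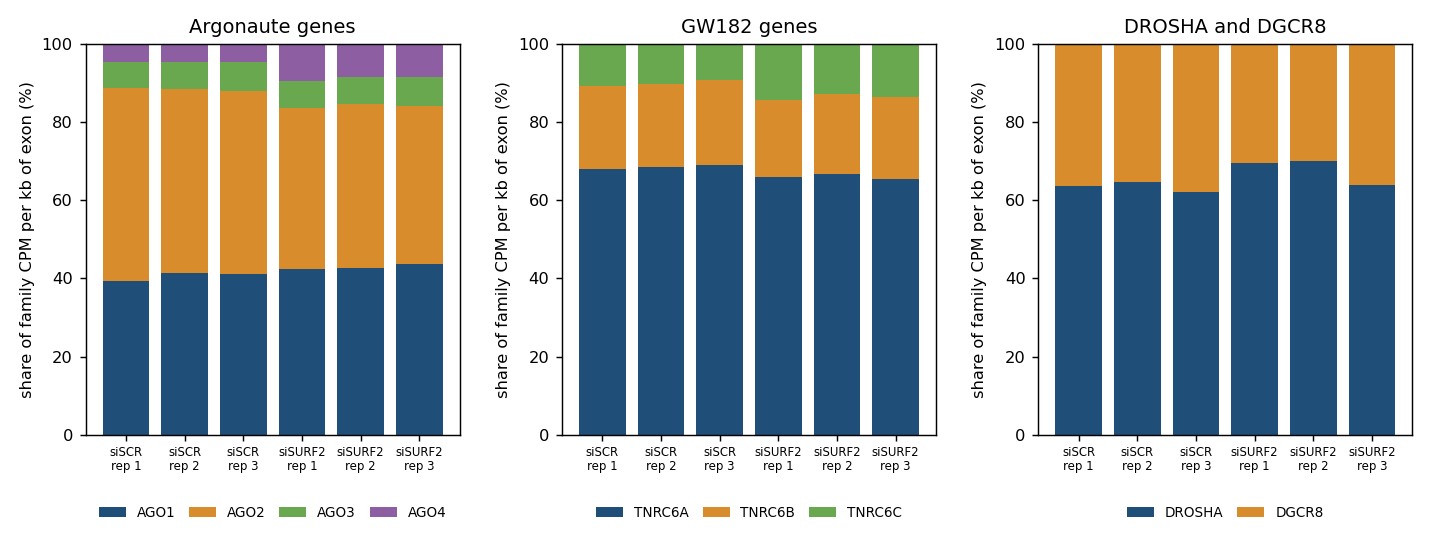
Share of each gene in its family's summed CPM per kb (vertical axis, percent; 1 stacked bar per library; colours, genes). The mean AGO2 share is 47.7% in siSCR and 41.3% in siSURF2, that of AGO4 4.56% and 8.79%, and that of TNRC6C 10.1% and 13.6%.

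Other genes of the pathway were read from 9 lists with 110 genes, of which 100 were tested. In all, 22.0% were higher (22 genes) and 46.0% lower (46 genes), with a median log2 fold change of -0.133. Over all genes tested the corresponding shares were 25.8% higher and 26.2% lower. The lists were written with earlier results of these data known and were not tested as sets. The difference in shares is therefore a description only, and the calls within each list have to be read against the shares over all genes. With ERCC library sizes the counts were 3 higher and 5 lower.

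Partners of the Microprocessor were mostly lower or did not pass. Of 12 tested, 2 rose and 6 fell, with a median log2 fold change of -0.166. LIN28B, which binds let-7 precursors and blocks their maturation, had means of 24.9 ± 1.37 CPM in siSCR and 61.8 ± 4.13 CPM in siSURF2 and rose by 1.31 ± 0.07 (log2; adjusted p = 3.2e-15). Its siSCR libraries had 23.4, 25.3 and 26.1 CPM and its siSURF2 libraries 60.9, 66.3 and 58.2 CPM, with no overlap. SRRT, the ARS2 protein that links the nuclear cap-binding complex to microRNA processing, fell by 0.37 on the log2 scale (SE 0.05, adjusted p = 5.5e-07). The subunits of that complex moved apart, NCBP1 with a log2 fold change of 0.31 and NCBP2 with -0.33 (adjusted p = 1.9e-05 and 8.9e-06).

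Genes that act with XPO5 and DICER1 or in Argonaute loading fell almost throughout. Of 13 tested, 11 fell (84.6%) and 1, AGO4, rose (7.7%), against 26.2% and 25.8% of all genes tested. ADAR, an editor of double-stranded RNA, did not pass, and the median log2 fold change was -0.24. HSP90AB1, a chaperone that helps load duplexes into Argonaute, had 2438, 2405 and 2387 CPM in siSCR and 1246, 1279 and 1249 CPM in siSURF2. It fell by 47.8% (log2 fold change -0.94 ± 0.05, adjusted p = 1.2e-15). TSN, which with TSNAX forms the C3PO nuclease that clears passenger strands, fell by 0.56 on the log2 scale (SE 0.05, adjusted p = 2.2e-10). The DICER1 partners TARBP2 and PRKRA fell by 0.24 and 0.33, and RAN, the partner of XPO5, fell by 0.40 (these 3 were chosen after their values were seen).

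Among genes that bind or modify Argonaute, 2 of 13 rose (15.4%) and 9 fell (69.2%), against 25.8% and 26.2% of all genes tested. The median log2 fold change was -0.21. LIMD1, a LIM-domain scaffold that joins Argonaute to GW182 proteins, had 116.1, 113.4 and 115.2 CPM in siSCR and 48.8, 45.4 and 48.5 CPM in siSURF2 (log2 fold change -1.27 ± 0.05, adjusted p = 5.5e-17). FMR1, an RNA-binding protein that associates with Argonaute, had 46.7 ± 1.96 CPM in siSCR and 27.0 ± 1.32 CPM in siSURF2 (log2 fold change -0.80 ± 0.07, adjusted p = 6.5e-11). The genes that rose were P4HB (0.34) and P4HA1 (0.37), which encode the subunits of the prolyl hydroxylase that modifies AGO2 (adjusted p = 1.1e-06 and 2.1e-05).

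Genes for the tailing and decay of microRNAs went both ways, with 6 of 13 higher (46.2%) and 5 lower (38.5%). Over all genes tested, 25.8% were higher and 26.2% lower. ZSWIM8, the receptor of the ubiquitin ligase that degrades Argonaute in target-directed microRNA decay, had 50.3 ± 2.79 CPM in siSCR and 86.0 ± 5.46 CPM in siSURF2 (log2 fold change 0.77 ± 0.06, adjusted p = 1.7e-11). TENT2, which adds adenosines to microRNA ends, rose by 0.59 ± 0.08 (adjusted p = 1.1e-06). ERI1, an exonuclease that trims small RNAs, had a log2 fold change of -0.70 ± 0.06 (adjusted p = 1.5e-10), and PARN, which trims adenosine tails, one of -0.25 ± 0.07 (adjusted p = 0.0034, and 0.062 without siSURF2 replicate 1). The higher genes numbered 3 without siSURF2 replicate 2, and the lower genes 3 without siSURF2 replicate 1, without siSURF2 replicate 3 or with upper-quartile factors.

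Downstream of the GW182 proteins, 3 of 15 deadenylase genes rose and 7 fell, and 3 of 14 decapping and repression genes rose and 6 fell. CNOT9, the CCR4-NOT subunit with pockets for GW182 tryptophans, had 80.6, 85.1 and 78.6 CPM in siSCR and 42.5, 43.9 and 41.2 CPM in siSURF2 (log2 fold change -0.94 ± 0.06, adjusted p = 1.2e-13). CNOT1, the scaffold of that complex, rose slightly (0.19 ± 0.05, adjusted p = 0.0024). PAN3 rose (0.44 ± 0.07, adjusted p = 6.1e-06) and its catalytic partner PAN2 fell (-0.34 ± 0.07, adjusted p = 1.6e-04). Without siSURF2 replicate 1 the lower genes of the deadenylase list numbered 4. LSM14B, a translational repressor of RNA granules, rose by 0.63 ± 0.05 (adjusted p = 1.8e-10) and GIGYF1, a repressor that acts through a cap-binding protein, by 0.40. DCP1A, a cofactor of decapping, had -0.54 ± 0.08 and PATL1, which bridges deadenylation and decapping, -0.34 (adjusted p = 1.6e-06 and 3.5e-06).

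**Figure D4:**
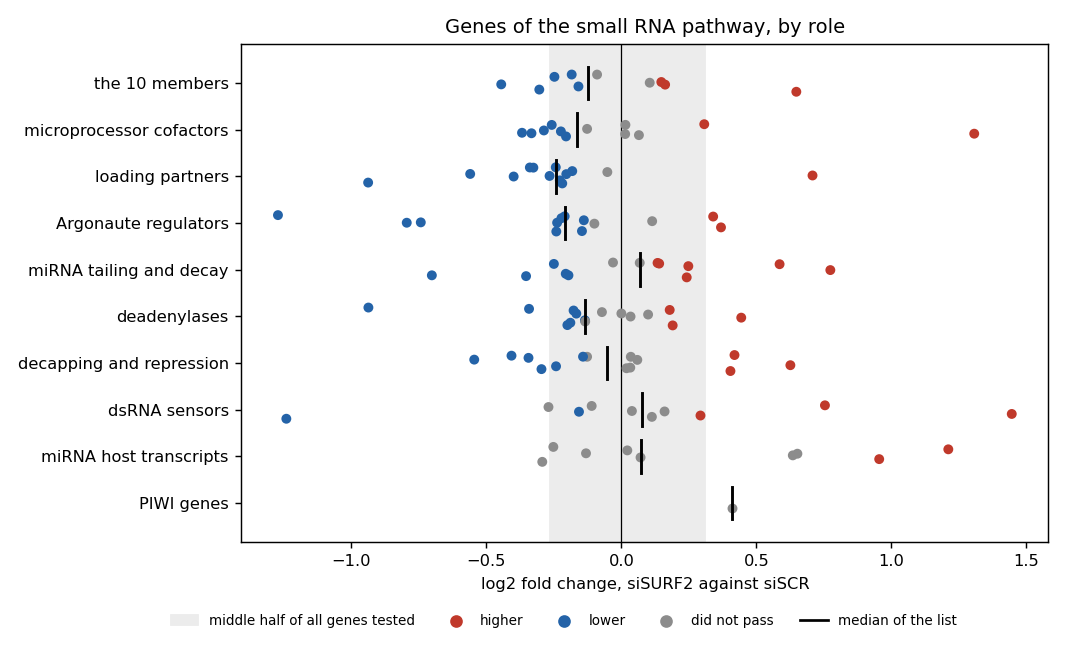
Log2 fold change of the 10 genes and of every tested gene of the pathway lists (horizontal axis; points, genes; rows, lists, the 10 genes on top; black lines, list medians; red, higher; blue, lower; grey, not passed), with the interquartile range of all genes tested as a grey band; vertical scatter within a row has no meaning. The loading partners lie mostly below 0, and LIN28B and MIR100HG are among the genes farthest above it.

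Of 14 microRNA host transcripts listed, 9 were abundant enough to test, and by edgeR 2 rose and 0 fell. The share of higher calls, 22.2%, was near the 25.8% of all genes tested, of which 26.2% were lower. At an unadjusted p under 0.05, 4 were higher and 0 lower, and DESeq2 and limma-voom each called 3 higher and 0 lower. MIR100HG, the host of let-7a, miR-100 and miR-125b shown above, had 7.20, 8.08 and 6.78 CPM in siSCR and 17.5, 15.3 and 18.2 CPM in siSURF2 (log2 fold change 1.21 ± 0.11, adjusted p = 2.1e-10). MIR222HG, the host of the pair with the shared seed, had 2.08, 2.35 and 2.41 CPM in siSCR and 4.67, 3.20 and 5.45 CPM in siSURF2 (0.95 ± 0.20, adjusted p = 2.5e-04). Both had no overlap between groups. MIR34AHG, the host of miR-34a and a known p53 target (chosen after its values were seen), had 9.23, 11.8 and 10.0 CPM in siSCR and 16.1, 11.4 and 21.2 CPM in siSURF2. Its siSURF2 replicate 2 lay within the siSCR range, and the log2 fold change of 0.65 ± 0.23 had an adjusted p of 0.053.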

How the data were processed

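The authors deposited unnormalized read counts per gene for the 6 polyA libraries. The submitters' processing notes name GRCh38, STAR 2.5.2b and fastp 0.23.1. How reads were counted, with which annotation and strand setting, no source used here states, so reads of paralogs or of overlapping genes may have been split or dropped. The 92 ERCC rows were left out of library sizes and tests. Genes passing edgeR's filter (minimum count 10, total 15) were tested with edgeR 4.0.16 (R 4.3.3, TMM factors, robust quasi-likelihood fit, siSURF2 against siSCR), with an adjusted p threshold of 0.05 over 17561 genes. The biological coefficient of variation was 5.12%. DESeq2 1.42.0, limma 3.58.1 (voom), other scalings and filters, a replicate block and leaving out each library were alternatives. Exon lengths and coordinates came from GENCODE 29. The fit was also run on simulated data in which fewer genes changed than here, and by larger folds than most of the 10 genes. That run did not test changes as small as theirs. The genes and lists were chosen with earlier results of these data known. Named were all 10 genes, SURF2, AGO4 and, of each list, up to 2 genes per direction, taken by smallest adjusted p (1 gene where none passed). A gene that this rule takes is not reported here.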

Additional observations from a re-analysis of the deposited data

How the results depend on the processing

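With library sizes from ERCC totals, the 10 genes had 0 higher and 0 lower calls by edgeR, the pathway lists 3 and 5, and all genes 802 and 825, against 4535 and 4596. The median of all genes moved by at most 0.05 (log2) under any scaling. With upper-quartile factors 3 of the 10 genes were lower. With coding length the change in the TNRC6A share was -1.65 percentage points, against -2.51 with exon length. Leaving out each library in turn gave 2 to 3 higher and 3 to 5 lower of the 10 genes (3 without siSURF2 replicate 1), 19 to 24 higher and 35 to 47 lower pathway genes, and a DROSHA share difference of 3.33 to 6.32 percentage points (6.32 without siSURF2 replicate 3, against 4.41 with all libraries). None of the values in the 16 alternatives turned direction for the 10 genes or the 30 named pathway genes. SURF2 stayed between -3.37 and -3.25.

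Residuals gave no sign that the replicate numbers pair the samples: those of libraries with the same number correlated at 0.006, -0.101 and -0.038. With 3 libraries a group this cannot exclude a shared batch. The libraries numbered 3 of both groups had the lowest ERCC shares (1.12% and 1.27%), and a batch was not tested. With the replicate number as a block, 3 of the 10 genes were higher and 5 lower, and over all genes 4478 were higher and 4550 lower. The 10 genes had 234 to 3475 counts per library. Each SE given was derived from the log2 fold change and the edgeR test statistic. It covers the spread among these libraries only, which may be technical.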

Other observations

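Sensors of double-stranded RNA had about the background share of calls: of 10 tested, 3 rose and 2 fell, against 25.8% and 26.2% of all genes, with 5 not passed and a median log2 fold change of 0.076. TLR3, the endosomal sensor, rose from 4.51 ± 0.411 to 12.3 ± 1.15 CPM (1.45 ± 0.13, edgeR adjusted p = 1.5e-10). The lower calls were DHX58 (-1.24 ± 0.41, adjusted p = 0.011), with 6 to 18 counts a library, and OAS3 (-0.16 ± 0.06, adjusted p = 0.042). DESeq2 called 0 lower, with 3 at an unadjusted p under 0.05 by edgeR, and limma-voom called 1. The OAS3 call was lost in 10 of 16 alternatives, among them without siSCR replicate 2 (adjusted p = 0.10), siSCR replicate 3 (0.16), siSURF2 replicate 1 (0.13) or siSURF2 replicate 3 (0.25), with adjusted p from 0.0063 to 0.73 over all 16.

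The PIWI genes, the germline branch of the Argonaute family, were near 0. Of 4, only PIWIL2 was tested, with 1.78 ± 0.0485 CPM in siSCR and 2.38 ± 0.434 CPM in siSURF2 (0.41 ± 0.23, edgeR adjusted p = 0.14). Neither edgeR at an unadjusted p under 0.05 nor DESeq2 nor limma-voom called it. PIWIL3 had 0 counts in all libraries.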
